A study of Homo sapiens with 2 samples.

Results

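The 10 genes described here encode enzymes of the trunk of glycolysis, from glucose 6-phosphate to pyruvate, with a second isoform of aldolase and enolase. The phosphofructokinase step of this trunk is not covered by them. The 10 genes are GPI, ALDOA, ALDOC, TPI1, GAPDH, PGK1, PGAM1, ENO1, ENO2 and the pyruvate kinase gene PKM, which the deposited tables list under its older symbol PKM2. They were taken by symbol from the 22595 gene symbols of the tables, by a rule that uses no measured value. The genes, the comparison lists and the rules of size used below were nonetheless chosen with earlier results of these data known. All 10 genes were among the 14240 symbols with at least 20 counts over both libraries. The series comprised 2 RNA sequencing libraries of total RNA from 786-O, a long-established line of human clear cell kidney cancer, 1 from a culture in medium with 25 mM glucose and 1 from a culture in medium with 0 mM glucose. The labels also tag the cultures as LucF and LucG, respectively, without saying what these tags mean, and any further difference that they mark cannot be told apart from glucose. The sources used here do not give the time without glucose.

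Each group held 1 library, so no difference below has a replicate check, no test was made, and any direction is that between these libraries. They held 27317598 counts (with glucose) and 31345853 counts (without). CPM stands for counts per 1e6 of the TMM-scaled library total, and RPKM values, as deposited, are also divided by the length of the gene model. Levels of different genes are therefore compared in RPKM or per kilobase. Shares of counts and counts for each GAPDH count are not scaled for length. Ratios compare 0 mM with 25 mM glucose (below 0 means fewer transcripts without glucose), on the log2 scale and after scaling, and each carries an exact 95% Clopper-Pearson interval that covers counting error only. A gene counts as higher where its whole interval exceeds 2-fold, and as lower where the whole interval is under 0.5-fold. Of 9 renal markers, PAX8 had 6796 counts with glucose and 7123 without, and VIM 120763 and 178040, whereas CA9, a hypoxia-induced carbonic anhydrase of this tumour type, had 4 and 0. Of the 8 measured markers 3 passed the 2-fold rule defined here, EPAS1, which encodes HIF-2 alpha, as higher without glucose (3741 and 12963 counts, log2 ratio 1.65) and the cadherin gene CDH6 (5352 and 257, -4.52) and LHX1 (544 and 104, -2.53) as lower. The sequenced RNA came from whole cultures, in which fewer expressing cells and less RNA per cell cannot be told apart.

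In glycolysis, GPI isomerises glucose 6-phosphate to fructose 6-phosphate, aldolase splits fructose 1,6-bisphosphate into triose phosphates, and TPI1 interconverts them. GAPDH, PGK1, PGAM1, enolase and pyruvate kinase then form the pay-off phase, in which ATP and pyruvate are made. Most of these genes are classical targets of hypoxia-inducible factors. 786-O cells lack functional VHL, the ligase subunit that marks these factors for degradation, and rely on HIF-2 alpha. Whether HIF-2 alpha acts on these genes in this line was not tested. ALDOA and ENO1 are the widely expressed isoforms, while ALDOC and ENO2 are best known from the nervous system. Pyruvate kinase is made as the splice forms PKM1 and PKM2 from one gene.

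PGK1 was lower without glucose and ALDOA higher, neither of them by the 2-fold rule. Because the hypoxia-responsive core is a textbook feature of glycolytic promoters, the upstream sequences of PGK1 and ALDOA are shown. Both are RefSeq promoter sequences in GRCh38.p14, printed 5′ to 3′ on the gene's own strand and trimmed to the longest stretch free of annotated exons of the gene in GENCODE release 29. Capitals mark ACGTG or GCGTG on either strand. The PGK1 stretch is chrX:78103998-78104173 on the plus strand, from 250 to 75 bases before the RefSeq start, and the ALDOA stretch is chr16:30065510-30065672 on the plus strand, from 250 to 88 bases before the most downstream of the 3 ALDOA starts in the table.
PGK1: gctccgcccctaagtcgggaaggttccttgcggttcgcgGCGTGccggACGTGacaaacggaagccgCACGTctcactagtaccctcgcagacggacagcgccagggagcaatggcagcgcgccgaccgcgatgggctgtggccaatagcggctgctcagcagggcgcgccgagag
ALDOA: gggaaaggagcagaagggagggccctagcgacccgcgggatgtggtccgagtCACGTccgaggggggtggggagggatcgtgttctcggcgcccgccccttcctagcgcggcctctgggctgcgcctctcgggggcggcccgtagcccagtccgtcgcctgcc
The PGK1 stretch held 3 matches, at 211, 202 and 183 bases before the start, and the ALDOA stretch held 1, at 198 bases. Without trimming, the 250 bases before the 3 ALDOA starts held 1, 2 and 1 matches, the 2 being an overlapping pair within an E-box. The number for ALDOA thus depends on the start chosen. The table gives 13 windows of 300 bases for the 10 genes, and 11 of them held ACGTG or GCGTG, beside 48.4% of all 35116 windows. The windows start at RefSeq starts that can differ from the start of the counted transcripts, by up to 1658 bases for PGAM1 and 1337 bases for GAPDH. The PGAM1 window held no match, and ALDOC had the most upstream matches, with 5, among them an overlapping pair within an E-box. Within the 250 bases before the start, PKM also held 0 matches, and GPI and ENO2 held 1 each. ENO1 held 2, GAPDH 2 as an overlapping pair within an E-box, and TPI1 0 and 2 before its starts. The numbers of matches were not compared with the ratios. ACGTG was found in 9 of the 13 windows and in 21.4% of all, and GCGTG in 5 of the 13 and in 36.5%. The E-box CACGTG, which contains ACGTG on both strands, was in the windows of ALDOA, ALDOC and GAPDH and in 7.26% of all. The carbohydrate response element, searched as a pair of CACGTG boxes 5 bases apart, was in 0 member windows and 2 of all windows, and the ER stress element, searched as CCAAT and CCACG 9 bases apart, in 0 and 27. A match says only that these letters are in the window.

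As a group the core enzymes had fewer transcripts without glucose, by less than 2-fold. Their summed level was 11557 CPM with glucose and 8437 CPM without, 1.37-fold lower (counting interval 1.36 to 1.38), and they took 1.18% of all counts with glucose (exact interval 1.174 to 1.182%) and 0.828% without (0.824 to 0.831%). The difference was uneven across the steps. PKM and PGAM1 stood near 0.5-fold, GAPDH near its level with glucose, and ALDOA and ENO2 above it. The median log2 ratio of the 10 genes was -0.43, where the median of all measured genes was 0.01, with quartiles at -0.45 and 0.42.

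None of the 10 genes passed the 2-fold rule in either direction, with 0 higher and 0 lower. Of all 14240 measured genes, 3.74% were higher and 6.2% lower by the same rule. With the bound set at 1.5-fold, PGAM1 and PKM2 were lower and 0 members higher, beside 12.6% and 10.2% of all genes. By counting error alone, that is with an interval that excluded 1-fold, 7 members were lower and ALDOA and ENO2 higher, beside 36.5% and 37.4% of all genes, and the interval of ALDOC included 1-fold. Of the 10 ratios 8 lay below 0, against 49.1% of all measured genes, 47.8% of the 8479 with a gene model as long as those of the members (1301 to 4455 bases) and 49.5% of the 2794 with at least 100 CPM in either library.

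**Figure D1:**
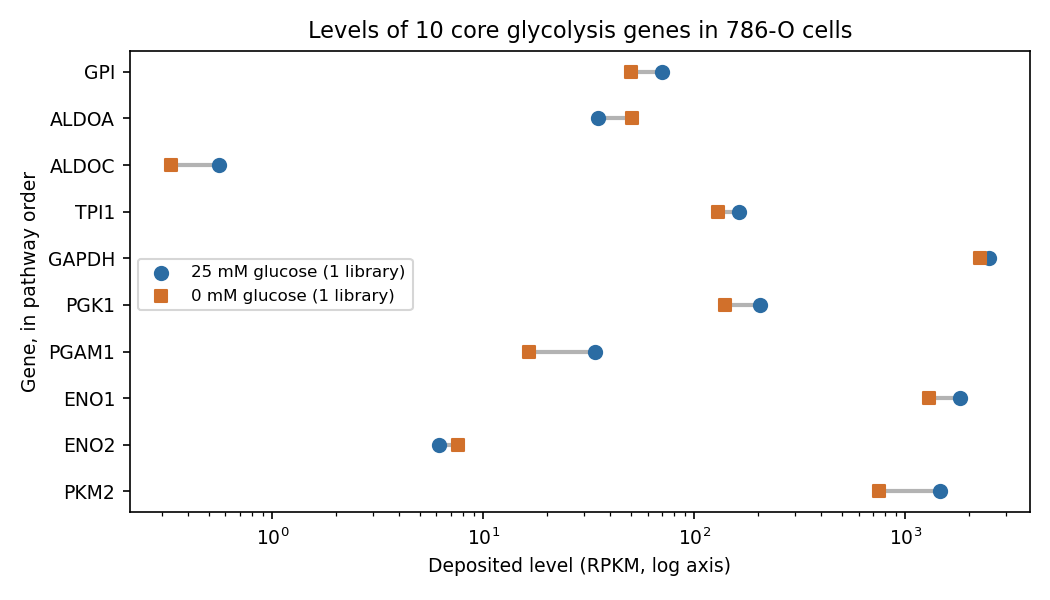
Deposited RPKM (log axis) of the 10 genes in pathway order, with 1 point for the library with 25 mM glucose and 1 for the library with 0 mM glucose. GAPDH, ENO1 and PKM2 stand above the other genes in both libraries, and ALDOA and ENO2 are the only genes whose square lies to the right of the circle.

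The steps differed far more from each other in level than the libraries did. Per length, GAPDH was the most abundant at 2487 RPKM with glucose and 2249 RPKM without, followed by ENO1 (1814 and 1294 RPKM) and PKM2 (1452 and 747 RPKM). These 3 genes made up 89.3% of the members' counts with glucose (exact interval 89.2 to 89.4%) and 88.2% without (88.1 to 88.3%). PGK1 and TPI1 formed a middle tier, at 204 and 162 RPKM with glucose. GPI, ALDOA and PGAM1 lay lower, at 70.0, 34.9 and 33.7 RPKM, so that GAPDH exceeded PGAM1 by 73.9-fold with glucose and by 137-fold without. The order of the 10 genes by RPKM was the same in both libraries except that ALDOA passed GPI. With glucose the counting intervals of ALDOA (33.5 to 36.2 RPKM) and PGAM1 (32.0 to 35.4 RPKM) overlapped, and without glucose those of GPI (48.7 to 51.1 RPKM) and ALDOA (49.4 to 52.4 RPKM) did, so these neighbours were not separated by counting error.

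The preparatory enzymes went in different directions. GPI, which also acts outside cells as the cytokine-like autocrine motility factor, lies at 34855645 to 34893318 of chromosome 19 (plus strand) in hg19, the build of the tables. It had 8449 counts (303 CPM) with glucose and 6904 counts (225 CPM) without, a log2 ratio of -0.43 (interval -0.48 to -0.39). Reads covered 19 of its 20 exons with more than 10 reads in both libraries. TPI1, at 6976584 to 6980110 of chromosome 12 (plus strand), had 8128 counts (292 CPM) and 7403 counts (241 CPM), a log2 ratio of -0.28 (-0.32 to -0.23). It stood lower without glucose by a smaller factor than GPI, since the intervals did not overlap.

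Aldolase was the step with more transcripts without glucose. ALDOA, at 30064491 to 30081735 of chromosome 16 (plus strand), had 2616 counts (93.9 CPM) with glucose and 4379 counts (142 CPM) without. This is a 1.52-fold higher level (interval 1.44 to 1.59), the highest ratio of the 10 genes, at percentile 83.1 of all measured genes. In RPKM the gene went from rank 2344 to rank 1520 among 23836 gene models. The number of its 17 annotated exons with more than 10 reads was 12 in both libraries, and the row covers 4 RefSeq transcripts.

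ALDOC was close to the limit of detection. It spans 26900133 to 26903951 of chromosome 17, minus strand, and had 25 counts (0.898 CPM) with glucose and 17 counts (0.553 CPM) without, with 1 and 0 of its 9 exons above 10 reads. The log2 ratio of -0.70 had an interval of -1.68 to 0.25, which includes 0, so the direction was not resolved at this depth. Counted per kilobase, ALDOC made up 1.59% of the ALDOA and ALDOC pair with glucose (1.03 to 2.33%) and 0.651% without (0.380 to 1.04%). The ratio of ALDOC to ALDOA was 0.406 times as large without glucose (counting interval 0.219 to 0.754), a value that rests on 42 ALDOC reads in all.

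GAPDH, the glyceraldehyde-3-phosphate dehydrogenase that is often used as a reference gene, had nearly the same level in both libraries. It spans 6643657 to 6647536 of chromosome 12, plus strand, and had 87643 counts (3147 CPM) with glucose and 90846 counts (2955 CPM) without. Its log2 ratio of -0.09 (interval -0.10 to -0.08) was the smallest in size among the members, and ranged from -0.15 to -0.05 over the scalings tried. GAPDH, TPI1 and ENO2 lie within 389 kb of each other on chromosome 12, from 6643657 to 7032859, and had 3 different ratios whose intervals did not overlap (-0.09, -0.28 and 0.36). GAPDHS, the isoform of sperm, had 0 and 1 counts.

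PGK1, which makes the first ATP of the pay-off phase, was lower without glucose. It lies on the X chromosome from 77359666 to 77382324 on the plus strand and had 13334 counts (479 CPM) with glucose and 10457 counts (340 CPM) without, 1.41-fold lower (interval 1.37 to 1.44). All 11 exons had more than 10 reads in both libraries. PGK2, an intronless copy of testis, had 17 and 3 counts, a log2 ratio of -2.65 with a wide interval (-5.06 to -0.86).

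PGAM1, the mutase that moves the phosphate of 3-phosphoglycerate, had the lowest ratio of the 10 genes. On chromosome 10 it spans 99186027 to 99193198 on the plus strand, and it had 1564 counts (56.2 CPM) with glucose and 877 counts (28.5 CPM) without, 1.97-fold lower (interval 1.81 to 2.14). This lay at percentile 11.0 of all measured genes, and the interval spanned 2-fold. Exons with more than 10 reads numbered 4 of 4 with glucose and 3 of 4 without. PGAM4, an intronless copy of PGAM1 on the X chromosome, had 72 and 44 counts, a log2 ratio of -0.85 (-1.43 to -0.29). Per kilobase it held 4.50% of the pair with glucose (3.54 to 5.63%) and 4.88% without (3.57 to 6.50%). How far reads of PGAM1 entered the PGAM4 counts was not tested. The muscle isoform PGAM2 had 1 and 2 counts, and BPGM, the bisphosphoglycerate mutase best known from red cells, had 286 and 252 counts (log2 ratio -0.33).

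The enolase isoforms, which make phosphoenolpyruvate, had opposite ratios. ENO1, at 8921063 to 8938780 of chromosome 1 (minus strand), had 88445 counts (3176 CPM) with glucose and 72319 counts (2352 CPM) without, 1.35-fold lower (interval 1.34 to 1.36). ENO2, at 7023614 to 7032859 of chromosome 12 (plus strand), had 401 counts (14.4 CPM) and 569 counts (18.5 CPM), 1.29-fold higher (1.13 to 1.46). The exons of ENO2 with more than 10 reads numbered 8 of 12 with glucose and 10 of 12 without.

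Even so, ENO1 made up nearly the whole pair in both libraries. Per kilobase, ENO2 held 0.337% of the ENO1 and ENO2 pair with glucose (exact interval 0.305 to 0.372%) and 0.584% without (0.537 to 0.634%). The ratio of ENO2 to ENO1, which does not depend on the scaling of the libraries, was 1.74 times as large without glucose (counting interval 1.53 to 1.97). ENO1 exceeded ENO2 by 295-fold per kilobase with glucose and by 170-fold without. ENO3, the muscle enolase, had 148 and 94 counts, a log2 ratio of -0.80 (-1.19 to -0.41).

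Pyruvate kinase, the last step, had the largest difference in counts. PKM2, at 72491370 to 72523684 of chromosome 15 (minus strand), had 111275 counts (3995 CPM) with glucose and 65638 counts (2135 CPM) without, 1.87-fold lower (interval 1.85 to 1.89). It lay at percentile 12.2 of all measured genes, and its RPKM went from rank 127 to rank 205. All 13 exons had more than 10 reads in both libraries. The row covers 3 RefSeq transcripts, so the splice forms PKM1 and PKM2 were counted together. PKLR, the pyruvate kinase gene of liver and red cells, had 9 and 0 counts.

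**Figure D2:**
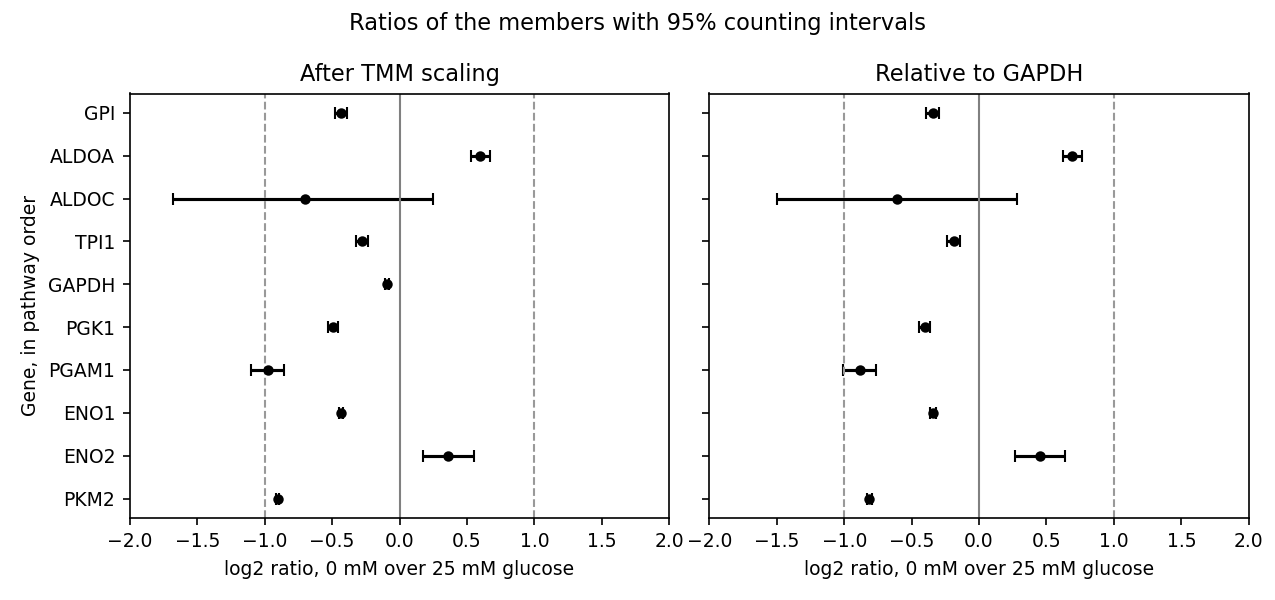
Log2 ratio of the library with 0 mM glucose to the library with 25 mM glucose for each of the 10 genes, after TMM scaling (left) and relative to GAPDH within each library (right), where the bars are 95% counting intervals and the dashed lines mark 2-fold. In both panels ALDOA and ENO2 lie to the right of 0 and PGAM1 and PKM2 lie farthest left among the genes with narrow intervals, while the interval of ALDOC crosses 0.

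Set in order, the ratios ran from PGAM1 (-0.98) and PKM2 (-0.90) through ALDOC (-0.70), PGK1 (-0.49), GPI (-0.43) and ENO1 (-0.43) to TPI1 (-0.28), GAPDH (-0.09), ENO2 (0.36) and ALDOA (0.60). Neighbours in this order had overlapping intervals, except ENO1 and TPI1, TPI1 and GAPDH, and GAPDH and ENO2. ALDOC overlapped its neighbours because of its low counts.

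Ratios to GAPDH within each library remove the scaling from the comparison. There were 1.27 PKM2 counts for each GAPDH count with glucose and 0.723 without, a log2 difference of -0.81 (counting interval -0.83 to -0.79). ENO1 had 1.01 and 0.796 counts for each GAPDH count (-0.34). ALDOA had 0.0298 and 0.0482 (0.69, interval 0.62 to 0.76). Relative to GAPDH, 6 genes were lower without glucose beyond counting error, ALDOA and ENO2 were higher, and ALDOC was not separated from 0. The share of all genes by this measure was not computed. After TMM scaling, 36.5% of all genes were lower and 37.4% higher beyond counting error. The ratios to GAPDH show unequal change among the members and not which gene stayed the same.

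PKM2 held a smaller share of the members' counts without glucose, and GAPDH a larger one. After scaling, GAPDH itself was not higher without glucose (3147 CPM with and 2955 CPM without, log2 ratio -0.09). The shares are not scaled for gene length, and in RPKM GAPDH stood above PKM2 in both libraries. PKM2 held 34.6% of the members' counts with glucose and 25.3% without, and GAPDH 27.2% and 35.0%. ENO1 held 27.5% and 27.9%. ALDOA went from 0.813% to 1.69%, and PGAM1 from 0.486% to 0.338%.

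**Figure D3:**
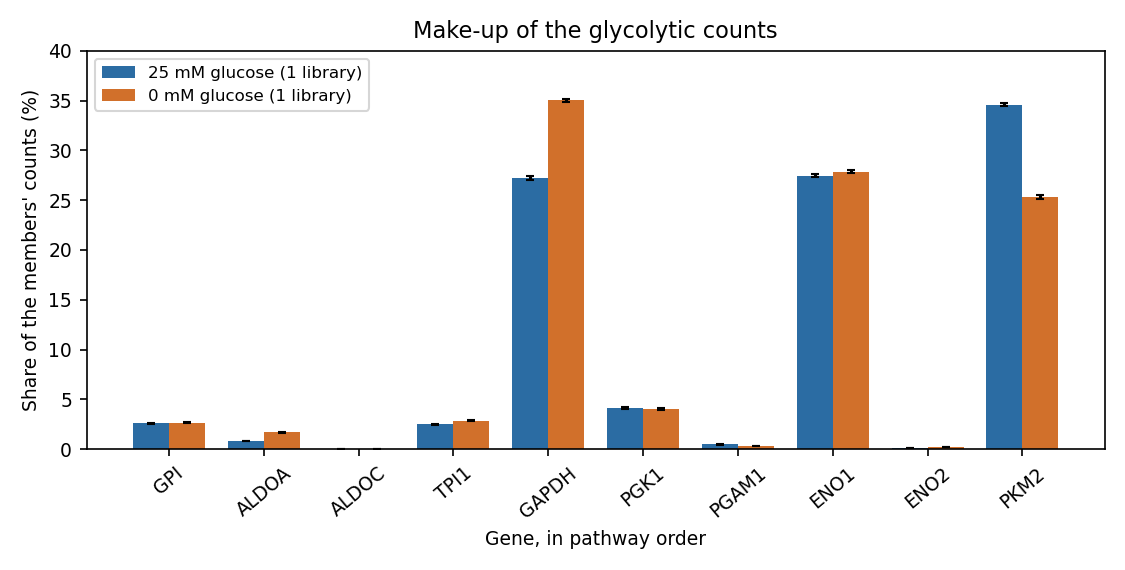
Share of the summed counts of the 10 genes held by each gene (percent, not scaled for gene length), with 1 bar for each library and exact 95% intervals as error bars. PKM2 has the tallest bar with 25 mM glucose (34.6%) and GAPDH the tallest with 0 mM glucose (35.0%), while the bars of ENO1 are nearly level.

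Several members have close copies in the genome, and the sources used here do not say whether reads that match more than 1 place were counted. GENCODE release 29 lists 62 pseudogenes named for GAPDH, 13 for PGAM1, 5 for PKM, 4 each for TPI1 and ENO1, 2 for ALDOA and 1 for PGK1, and 0 for GPI, ALDOC and ENO2. Of all 50-base windows of the member's RefSeq-matched transcript, 43.1% also occurred in a transcript of another gene for PGAM1, 25.2% for TPI1, 13.8% for GAPDH, 3.41% for PGK1 and 2.61% for ENO1. For the other 5 genes the share was at most 1.20%. The levels of PGAM1, TPI1 and GAPDH are therefore uncertain as those of single genes, and the part of shared sequence in the low level of PGAM1 was not tested. The tables held the pseudogene rows TPI1P2, with 245 and 169 counts (log2 ratio -0.68), and TPI1P3, with 29 and 14. TPI1 also meets SPSB2, which lies on the minus strand from 6980100, at its 3′ end. SPSB2 had 110 and 184 counts, and use of strand is not given.

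The rest of the pathway was described by lists of upstream, downstream, side-branch and gluconeogenic genes. Of 12 measured genes of glucose uptake and the preparatory steps, 3 passed the rule as higher and 1 as lower, and the median log2 ratio was 0.13. The higher genes were the transporters SLC2A1 (1.62) and SLC2A3 (1.40) and the hexokinase HK2 (1.79), and the lower gene was PFKFB3 (-1.26), which makes the activator of phosphofructokinase. Of 15 genes of lactate and pyruvate handling, none was higher and 2 lower, LDHA (-1.30) and SLC16A3 (-1.49), the median was -0.13, and PDK3, a kinase that inhibits pyruvate dehydrogenase, had 57.8 and 30.0 CPM (-0.95).

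Of 18 measured side-branch genes, none was higher and 2 were lower, and the median was 0.04. The lower genes were AKR1B1, the aldose reductase of the polyol pathway (1412 and 654 CPM, -1.11), and GFPT2 (-1.21). GFPT1, the main entry enzyme of the hexosamine pathway, had 239 and 468 CPM (0.97, interval 0.93 to 1.01). Gluconeogenesis, which runs the trunk backwards, was represented by 3 measured genes of 7, and none passed the rule. They were G6PC3 (1.09, interval 0.99 to 1.19), PCK2 (0.10) and PC (-0.37). FBP1 had 0 and 1 counts, FBP2 0 in both libraries, PCK1 4 and 1, and G6PC 2 and 1.

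**Figure D4:**
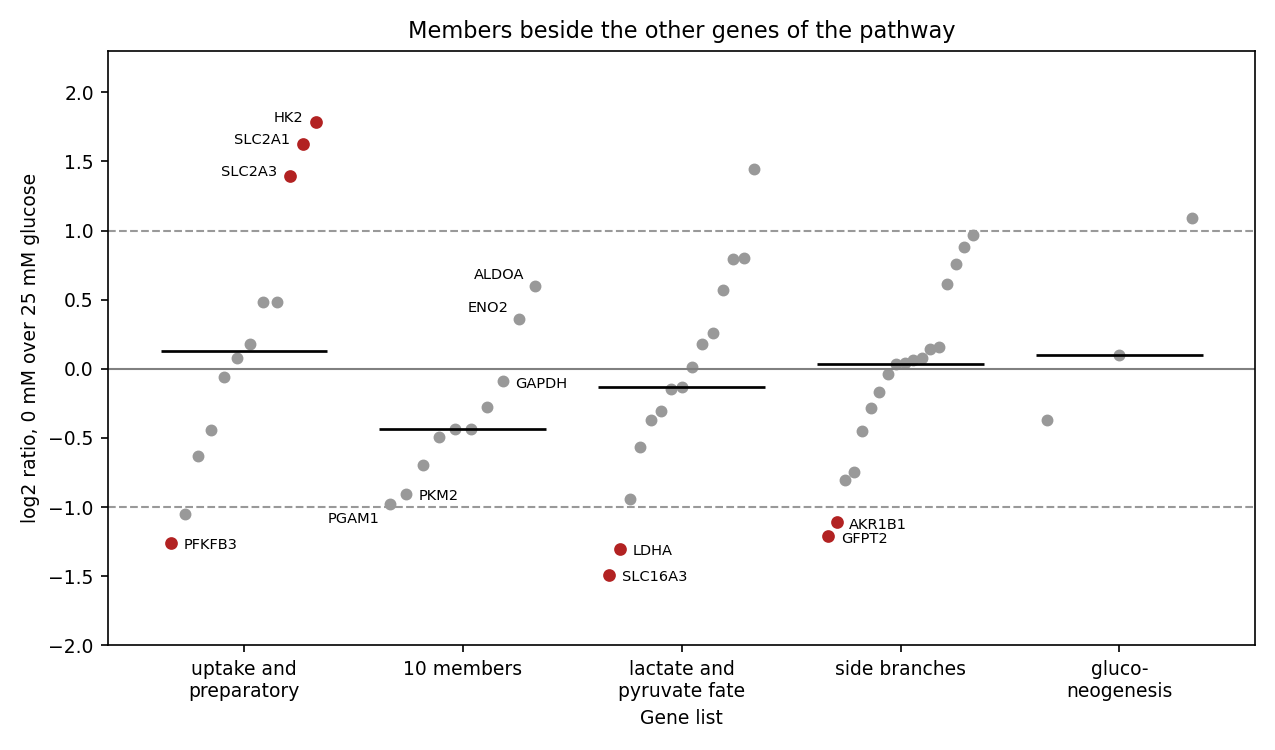
Log2 ratio (0 mM over 25 mM glucose) of each measured gene in 5 lists, with 1 point per gene, a horizontal bar at the median of each list and dashed lines at 2-fold. Red points are genes whose counting interval lies wholly beyond 2-fold, none of them among the 10 members, whose median of -0.43 lies below the medians of the other 4 lists.

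Of the 48 measured genes of these 4 lists together, 3 were higher and 5 lower, beside 3.74% and 6.2% of all genes. Their median of 0.04 turned to -0.02 with scaling by total counts.

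Markers of other cell types were mostly at low counts, except TUBB3 and LCP1. Of the 5 nervous system markers, chosen because ALDOC and ENO2 are also nervous system isoforms, 4 were measured, and none passed the rule. TUBB3, which many cultured cells express, had 1155 and 1183 counts, and RBFOX3, SNAP25, SYP and GFAP had at most 45 counts in either library. The 5 markers summed to 44.7 CPM with glucose and to 40.4 CPM without, of which TUBB3 alone made up 41.5 and 38.5 CPM. The 3 muscle markers stood at 0.790 and 0.976 CPM in sum, the 4 endothelial markers at 1.72 and 0.390 CPM, the 5 fibroblast markers at 19.0 and 9.30 CPM, of which LUM passed the 2-fold rule as lower (295 and 100 counts, -1.70), and HBA1 and HBA2 had 0 counts in both libraries. Of the leukocyte markers, PTPRC, CD3E and CD14 had at most 12 counts in either library, and LCP1 had 7042 and 9832 counts (253 and 320 CPM). The part of these markers in the member values was not tested.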

How the data were processed

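Total RNA of 2 cultures was sequenced as 1 library each after Trizol extraction, per the labels' protocols. The submitters' processing notes name the genome build hg19. The sources used here do not give the aligner, counter, strand use or library preparation. The deposited counts were raw whole numbers per gene model, per the file headers, and the deposited RPKM values, also per the file headers, were counts per kilobase and per 1e6 reads. The deposited tables also gave the number of exons with more than 10 reads, per the file headers, a further (other) measure.

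Of the 24364 rows, 528 were removed because a row under another symbol had the same place, length and counts, and the rest were added up by symbol. TMM factors (edgeR 4.0.16, R 4.3.3) over genes with at least 20 counts were 1.02 with glucose and 0.981 without. Ratios used no pseudocount, with 0 counts set to a floor of 3 (no member was at 0). Intervals between genes, such as those relative to GAPDH, are 95% normal intervals on the log scale. PCR copies are not independent molecules, so all intervals are limited to counting error. Scripts used Python 3.11.15 and scipy 1.17.1. The ratio procedure was run on counts simulated with counting error alone, which says nothing about variation between cultures.

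The members, lists and rules were chosen with earlier results of these data known. Named were all members, other isoforms, pseudogene rows, and of each pathway list up to 3 genes with the largest absolute ratio among those with at least 10 CPM, plus those past the 2-fold rule. Others are named as marker genes or where few genes were counted. Promoters were matched for 10 of 10 members in the RefSeq table (GRCh38.p14). Protein sequences were not used here, and some genes of the lists are not reported here.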

Additional observations from a re-analysis of the deposited data

How the results depend on the processing

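Leaving out a replicate was not possible with 1 library on each side. No paired analysis was possible because the groups had 1 library apiece. Scaling by total counts, by the upper quartile or by DESeq2 size factors (DESeq2 1.42.0), leaving small RNA genes out of the library size, adding 1 CPM and summing TPI1 with its pseudogene rows turned the sign of 0 of the members' 60 alternative ratios. Most of these signs could not turn. Each scaling shifts all ratios alike, and the largest shift (-0.056) was smaller in size than the smallest member ratio (GAPDH, -0.09). Adding 1 CPM to both libraries keeps the sign, and summing pseudogene rows changed TPI1 alone. With scaling by total counts the members' median was -0.49 and that of the other pathway genes -0.019, and with 1 CPM added the members' median was -0.36. With the bound at 1.5-fold, 2 members were lower, 1451 of all genes higher and 1800 lower, and 7 other pathway genes higher and 9 lower. With intervals that excluded 1-fold, 2 members were higher and 7 lower. By raw counts without length, ALDOC held 0.947% of its pair with glucose, and ENO2 0.451% with glucose and 0.781% without. Depth limits ALDOC, with 25 and 17 counts, and the minor isoforms.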

Other observations

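The minor muscle enolase gene ENO3 had 148 counts with glucose, with 1 of its 13 exons above 10 reads, and 94 counts without glucose, with 4 exons above 10 reads. The exon number thus went up where the count went down, and how the reads lie along the gene was not analysed here.

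The gene models within 2 kb of a member had ratios on both sides of 0. SPAG5, a spindle protein gene that lies next to ALDOC on the same strand, had 5737 and 1765 counts (log2 ratio -1.84), and PIGS, on the other side of ALDOC, had 2255 and 2407 (-0.05). ENO2 lies between LRRC23, with 135 and 277 counts (0.89), and ATN1, with 1080 and 933 (-0.35). USP5, upstream of TPI1, had 3793 and 2689 counts (-0.64), and IFFO1, on the opposite strand beyond the end of GAPDH, had 321 and 191 (-0.89). PDCD2L, beyond GPI, had 224 and 441 counts (0.83), and GRAMD2, beyond PKM2, had 10 and 9 (-0.29, interval -1.77 to 1.16). With SPSB2, these are all the gene models within that distance.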
